A study of Mus musculus with 4 samples.

Results

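Multipotent progenitors (MPPs) were compared with granulocyte-macrophage progenitors (GMPs) of the same wild type (WT) donors, the step at which a cell with all blood fates open has become restricted to granulocytes and macrophages. The comparison uses 2 of the 4 arrays of the series, those titled MPP_WT and GMP_WT, and was made as the log2 difference, MPP minus GMP, for each gene. The other 2 arrays hold the same populations from *Bcl11a*-/- donors, which carry a deletion of the first exon of *Bcl11a*, and serve here as a second MPP and GMP pair of another genotype. For every array, B6.SJL mice were lethally irradiated with 1200 rad, received fetal liver cells of WT or *Bcl11a*-/- fetuses, and gave bone marrow (BM) 4 weeks later per the labels. Donor-derived cells were sorted, MPPs as the CD150-negative part of the Lin-Sca-1+c-Kit+ (LSK) fraction and GMPs from the same BM, and the cells of a donor genotype were combined into 1 pool per population for RNA. The labels give B6.SJL, the recipient strain, as the genetic background of every sample. Neither the number of mice in a pool nor the age of the recipients is given in the sources used here, and marrow rebuilt from fetal liver after irradiation may differ from that of an unmanipulated adult.

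MPPs lie just below the stem cell and can still form every blood lineage. Some of them already transcribe lymphoid genes at low level, under the influence of the cytokine receptor Flt3 and of transcription factors such as E2A and Ikaros, and these are called lymphoid-primed. GMPs are formed under C/EBPα and PU.1. They begin to make the serine proteases and the peroxidase that are packed into the primary granules of neutrophils, and their descendants are neutrophils and monocytes.

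WT MPPs had more signal for lymphoid, early B cell and erythroid genes and for part of the stem cell and multipotent genes. WT GMPs had more for granule proteins, the phagocyte oxidase, glycolytic enzymes and protein folding factors of the endoplasmic reticulum. Of 19938 genes, 825 (4.14%) differed by more than 2-fold between the populations, 266 (1.33%) higher and 559 (2.8%) lower in MPPs. Among the 9627 genes that reached a log2 signal of 6 on at least 1 of both arrays, 746 (7.75%) were past 2-fold, 209 (2.17%) higher and 537 (5.58%) lower. Per annotated probe set the count was 1022 of 23410 (4.37%), 338 (1.44%) higher and 684 (2.92%) lower. There was 1 array per population, so differences could not be set against replicate spread or tested, and precision is limited by the single array. "Higher" and "lower" below describe these arrays. In a pool of cells, more RNA per cell and more cells that hold the RNA cannot be told apart.

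Values are log2 signals after the authors' RMA summary and quantile normalization. Probe sets that carry a gene's symbol and no other were averaged to give its value. Median signal over the genes was 5.67 in GMPs and 5.78 in MPPs, the SD was 2.04 and 1.93, and the median difference was 0.06. Without regard to size, 57.0% of all genes had a higher and 42.8% a lower value in MPPs. These shares are the base for counts of higher or lower values in lists below that hold many dim genes. The Pearson correlation of the 2 arrays across genes was 0.98 (Spearman 0.98), and the SD of the difference was 0.46 log2 units. Over the genes that reached log2 6 the median difference was −0.06, and 45.1% had a higher and 54.9% a lower value in MPPs. That is the nearer base for lists whose members nearly all reach log2 6. When the 2 arrays were quantile normalized anew, 277 genes were over 2-fold higher and 458 lower.

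**Figure D1:**
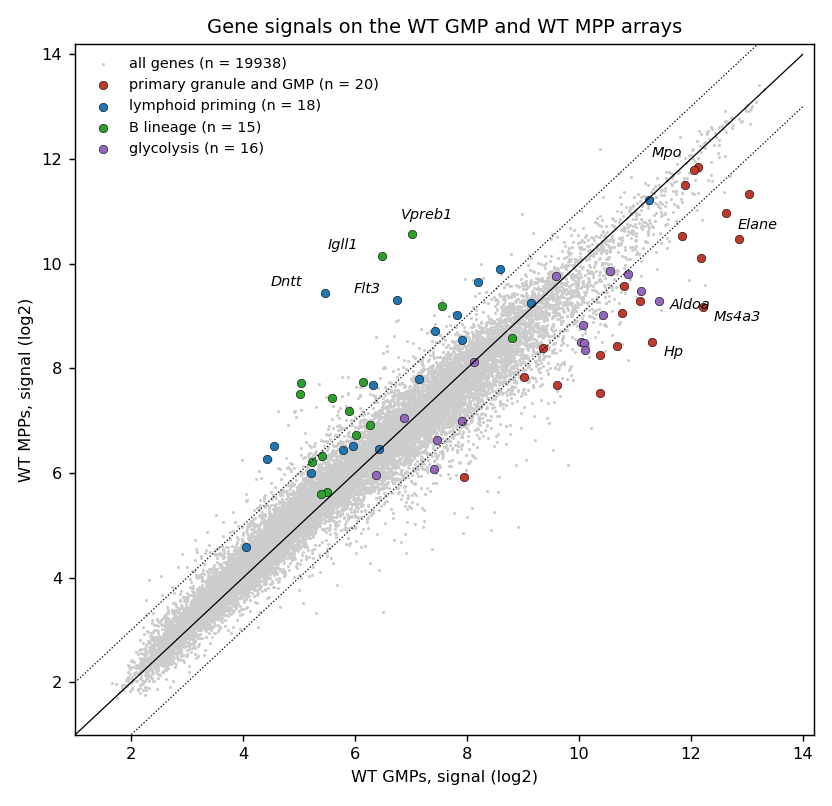
Signal (log2) of each of 19938 genes on the WT GMP array (horizontal) and the WT MPP array (vertical), 1 array each, with the genes of 4 lists in color; the solid line marks equal signal and the dotted lines a 2-fold difference. Primary granule genes lie on or below the diagonal, lymphoid priming and B lineage genes mostly above it, with *Dntt* at 5.46 in GMPs and 9.44 in MPPs.

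The sort markers and the 4 marker genes were read first as a check of the labels. *Flt3* and *Dntt*, markers of lymphoid-primed MPPs, were 6.75 and 5.46 in GMPs and 9.31 and 9.44 in MPPs, which is 5.92-fold and 15.7-fold higher in MPPs. *Elane*, the neutrophil elastase gene, was 12.64 in GMPs and 10.98 in MPPs, 3.16-fold lower in MPPs. *Mpo*, which encodes myeloperoxidase, was 12.13 in GMPs and 11.84 in MPPs. It differed by 1.22-fold, so it did not separate the populations past 2-fold on these arrays. Of the genes whose products are used to sort such cells, *Fcgr3* and *Fcgr2b* (CD16 and CD32, high on GMPs) were 2.94-fold and 2.14-fold lower in MPPs. *Kit*, which both gates require, differed by 0.19 log2 units. *Cd34* was 1.87-fold higher in MPPs (2.14-fold with the arrays quantile normalized anew). *Slamf1*, which encodes the CD150 that the MPP gate excludes, had a log2 signal of 4.87 in GMPs and 4.34 in MPPs. *Il7r*, avoided in the sort, was 4.62 and 7.19, 5.93-fold higher in MPPs. The gene for Sca-1 was not analysed here. *Bcl11a* itself encodes a zinc finger factor required for lymphoid development. Its signal was 8.60 in WT GMPs and 9.89 in WT MPPs, and 7.77 and 8.64 in the *Bcl11a*-/- GMPs and MPPs. The deletion in *Bcl11a*-/- donors is of the first exon, and whether their signal comes from the rest of the transcript was not tested.

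Genes of lymphoid-primed progenitors were higher in MPPs as a group. Of 18 measured, 9 were over 2-fold higher, none was lower and 9 were within 2-fold, with a list median of 0.995 against 0.06 over all genes. Over all genes, 1.33% were over 2-fold higher. The 9 include the marker genes *Flt3* and *Dntt*. As with the other lists, members were chosen with earlier results of these data known. *Dntt*, which encodes the polymerase TdT that adds bases at antigen receptor joints, had the largest difference of any gene in the comparison toward MPPs. *Rag2* and *Rag1*, the subunits of the V(D)J recombinase, had signals of 4.56 and 4.42 in GMPs and 6.52 and 6.27 in MPPs, 3.88-fold and 3.60-fold higher. Once signals under 5 were set to 5 their log2 differences were 1.52 and 1.27. The chromatin organizer *Satb1* was 8.20 in GMPs and 9.66 in MPPs, 2.74-fold higher. *Cnn3*, encoding calponin 3, was 6.32 and 7.68, 2.57-fold higher. The member with the lowest difference was *Cd52*, at −0.03 log2 units.

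Early B cell genes were higher in MPPs as well, and 4 of them stood among the 15 largest differences toward MPPs. Of 15 measured, 8 were over 2-fold higher, none was lower and 7 were within 2-fold, with a median of 1.29. *Igll1* and *Vpreb1*, whose products pair as a stand-in light chain in pre-B cells, were 6.49 and 7.01 in GMPs and 10.14 and 10.58 in MPPs, 12.6-fold and 11.8-fold higher. *Ebf1*, which directs commitment to the B lineage, was 5.05 in GMPs and 7.72 in MPPs, 6.38-fold higher. *Blnk*, an adaptor of B cell receptor signaling, was 5.02 and 7.51, 5.62-fold higher. *Cd79a*, which encodes Ig-alpha and carries signals of the antigen receptor, was 3.62-fold higher (5.59 and 7.44), and *Vpreb3*, which acts in assembly of the pre-B cell receptor, was 3.12-fold higher (7.55 and 9.19). *Cd79b*, the partner of *Cd79a*, differed by −0.23 log2 units. These genes mark committed B cell precursors as well as primed MPPs. The list's signals ran from 5.02 to 8.81 with a median of 5.90 in GMPs, and from 5.59 to 10.58 with a median of 7.44 in MPPs. The part of B cell precursors in the MPP difference was not tested.

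Part of the list of stem cell and multipotent genes was higher in MPPs, a gate that leaves out CD150-positive cells. Of 24 measured, 8 were over 2-fold higher, none was lower and 16 were within 2-fold, with a median of 0.61. On either array 15 of the 24 reached log2 6, with all 8 among them. Of the dimmer members, *Procr*, *Tek* and *Prdm16* were at −0.12, 0.02 and 0.03, and *Mecom* and *Ndn* at 0.59 and 0.98. *Sox4*, a transcription factor of early progenitors, was 6.69 in GMPs and 8.62 in MPPs, 3.82-fold higher. *Meis1*, a homeobox partner of Hox proteins, was 6.12 and 7.64, 2.85-fold higher. *Angpt1*, encoding the ligand angiopoietin 1, was 7.44 and 8.86, 2.67-fold higher. *Adgrg1*, an adhesion receptor of stem cells also known as *Gpr56*, was 8.79 and 10.20, 2.65-fold higher, and *Gfi1b*, a repressor needed for erythroid and megakaryocyte cells, was 7.34 and 8.72, 2.59-fold higher. The lowest of the list was the receptor gene *Tie1*, at −0.27. Of 16 Hox genes and partners, 14 had a higher value in MPPs, but only *Meis1* and *Hoxa5* (5.84 and 7.01, 2.24-fold) were over 2-fold, and the median was 0.44.

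Erythroid genes formed a further group higher in MPPs. Of 15 measured, 8 were over 2-fold higher, none was lower and 7 were within 2-fold, with a median of 1.11. *Car1*, encoding the carbonic anhydrase of red cell progenitors, was 10.38 in GMPs and 12.20 in MPPs, 3.53-fold higher. *Car2*, another carbonic anhydrase gene, was 8.28 and 9.73, 2.72-fold higher. *Ank1*, which encodes the ankyrin of the red cell skeleton, was 2.65-fold higher, and *Klf1*, the erythroid Krüppel-like factor, was 6.44 and 7.82, 2.60-fold higher. *Rhd* and *Rhag*, which encode Rh membrane proteins of red cells, were 2.49-fold and 2.44-fold higher. The transferrin receptor gene *Tfrc* was at −0.30 and *Epb42*, a red cell membrane protein gene, at −0.06. The part of erythroid cells in the MPP difference was not tested. The 3 globin genes measured, all of embryonic type, had differences of 0.47 (*Hba-x*), 0.46 (*Hbb-y*) and 0.18 (*Hbb-bh1*), with no signal above 6.

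Primary granule and GMP genes were lower in MPPs. All 20 measured had a lower value, 16 by more than 2-fold, and the median was −1.77. *Ms4a3*, known as a marker gene of GMPs, was 12.22 in GMPs and 9.18 in MPPs, 8.26-fold lower. *Anxa3*, encoding annexin A3, was 10.39 and 7.53, 7.24-fold lower, and *Hp*, the haptoglobin gene, was 11.32 and 8.51, 6.97-fold lower. *Ctsg*, which encodes the granule protease cathepsin G, was 12.86 and 10.48, 5.23-fold lower. *Prtn3*, the proteinase 3 gene, was 13.05 and 11.34, 3.26-fold lower. *Igsf6*, a myeloid membrane protein gene, was 4.31-fold lower (10.37 and 8.26). *Alas1*, which encodes the rate-limiting enzyme of heme synthesis outside red cells, was 10.68 and 8.43, 4.78-fold lower. Heme is the cofactor of myeloperoxidase. The 4 genes within 2-fold were *Plac8*, *Mpo*, *Srgn* and *Ly86*, and the first 3 of them differed by less than 0.4 log2 units. Apart from *Mpo*, these were named after their values were seen.

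The promoters of granule genes that were lower together in MPPs, and of the 2 MPP markers, are shown as RefSeq gives them in build GRCm38.p6, each as the 250 bases before the annotated start, 5′ to 3′ on the gene's strand. Capitals mark GAGGAA or its reverse complement, a core of PU.1 sites, and TTGCNNAA or its reverse complement, a form of C/EBP sites, which has no match in these windows.
*Elane* (chr10:79886062-79886311, plus strand): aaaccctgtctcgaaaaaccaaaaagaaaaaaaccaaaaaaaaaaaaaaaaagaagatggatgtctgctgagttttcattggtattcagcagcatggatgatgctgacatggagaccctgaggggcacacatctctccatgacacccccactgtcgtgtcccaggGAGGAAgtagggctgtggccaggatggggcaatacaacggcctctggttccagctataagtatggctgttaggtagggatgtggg
*Prtn3* (chr10:79879417-79879666, plus strand): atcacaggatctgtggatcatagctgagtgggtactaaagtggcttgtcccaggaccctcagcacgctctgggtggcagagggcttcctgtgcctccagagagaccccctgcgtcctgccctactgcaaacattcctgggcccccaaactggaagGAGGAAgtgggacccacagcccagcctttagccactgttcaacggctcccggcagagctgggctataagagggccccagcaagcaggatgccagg
*Ctsg* (chr14:56102575-56102824, minus strand): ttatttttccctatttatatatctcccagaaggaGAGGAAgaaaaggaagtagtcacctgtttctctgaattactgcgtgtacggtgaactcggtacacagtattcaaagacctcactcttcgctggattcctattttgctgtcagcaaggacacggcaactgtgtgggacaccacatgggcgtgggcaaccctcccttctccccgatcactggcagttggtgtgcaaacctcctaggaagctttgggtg
*Flt3* (chr5:147400490-147400739, minus strand): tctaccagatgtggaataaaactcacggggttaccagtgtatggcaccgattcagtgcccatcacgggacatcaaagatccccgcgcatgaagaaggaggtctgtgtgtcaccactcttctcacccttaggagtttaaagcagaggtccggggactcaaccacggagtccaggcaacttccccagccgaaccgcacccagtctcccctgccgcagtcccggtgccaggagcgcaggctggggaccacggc
*Dntt* (chr19:41029025-41029274, plus strand): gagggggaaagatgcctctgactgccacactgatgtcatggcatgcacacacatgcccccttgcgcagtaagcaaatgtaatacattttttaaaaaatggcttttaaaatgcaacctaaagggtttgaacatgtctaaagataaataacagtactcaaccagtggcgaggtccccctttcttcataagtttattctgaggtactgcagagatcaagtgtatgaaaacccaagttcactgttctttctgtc
*Elane* and *Prtn3* are neighbors on chromosome 10. Of 5 granule gene windows searched (*Elane*, *Prtn3*, *Mpo*, *Ctsg* and *Ms4a3*), 4 held GAGGAA on either strand, against 23.3% of all 32851 windows of this length, and *Ms4a3* did not. The windows of *Flt3* and *Dntt* held none. TTGCNNAA was in none of the 7 windows and in 9.56% of all windows. Of the other motifs searched, AACNG of MYB matched in 4 of the 5 granule windows and 74.2% of all windows. TGTGGT of RUNX matched in 1 of the 5 and in 4614 of the 32851. CANNTG, the E-box, matched in 2 of the 5 and in 66.2% of all. No GAGGAA match overlapped another motif, while in *Ctsg* matches of CANNTG overlapped those of AACNG and of TGTGGT. Over genes past 2-fold the shares lay close to those of all measured genes. GAGGAA was in 22.3% of the windows of genes lower in MPPs, 27.0% of those of genes higher in MPPs and 22.6% of those of all measured genes. TTGCNNAA was in 10.7%, 6.64% and 8.66%. A match here is a description of letters and not of binding.

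Phagocyte effector genes followed the granule genes in part. All 5 measured subunits of the NADPH oxidase, which makes superoxide in phagocytes, were over 2-fold lower in MPPs, with a median of −1.62. *Cyba* (p22phox) was 10.34 in GMPs and 8.26 in MPPs, 4.21-fold lower, and *Ncf4* was 9.83 and 7.97, 3.64-fold lower. *Cybb* (gp91phox) was 9.74 and 8.13, 3.07-fold lower. *Rac2* and *Ncf1* were 2.28-fold and 2.27-fold lower, and with the arrays quantile normalized anew both were just within 2-fold, at −0.99. Of 16 innate receptor and adaptor genes, 4 were over 2-fold lower, 1 was higher and 11 were within 2-fold, with a median of −0.37. *Trem3*, an activating receptor of myeloid cells, was 9.53 and 6.45, 8.46-fold lower. *Clec4a2*, a C-type lectin gene, was 3.91-fold lower, and the LPS receptor gene *Tlr4* was 7.49 and 6.34, 2.22-fold lower. *Tlr7*, an RNA sensor gene, was the one that was higher, 2.10-fold, from signals of 3.82 and 4.89 that are near the bottom of the scale. Once signals under 5 were set to 5 its difference was 0.

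Among transcription factors of myeloid development, *Cebpb*, *Cebpd* and *Cebpe* of the C/EBP family were lower in MPPs. Of 15 measured, 5 were over 2-fold lower, 10 lay within 2-fold and none was higher, with a median of −0.54. *Tfec*, a member of the MiT family found in macrophages, was 9.47 in GMPs and 6.95 in MPPs, 5.72-fold lower. *Cebpe*, needed for late granulocyte development, was 9.04 and 7.53, 2.85-fold lower. *Cebpd* and *Cebpb* were 2.30-fold and 2.28-fold lower. *Gfi1*, a transcriptional repressor needed for granulocyte development, was 7.65 and 6.61, 2.06-fold lower (1.96-fold anew normalized). *Klf4*, a monocyte factor, was 1.85-fold lower. *Cebpa*, which is needed to form GMPs, was 8.99 and 8.70, a difference of −0.29, and *Spi1*, the gene of PU.1, was at −0.62; both were named after their values were seen. *Rara*, the retinoic acid receptor alpha gene, was 6.78 and 7.70, 1.90-fold higher in MPPs.

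**Figure D2:**
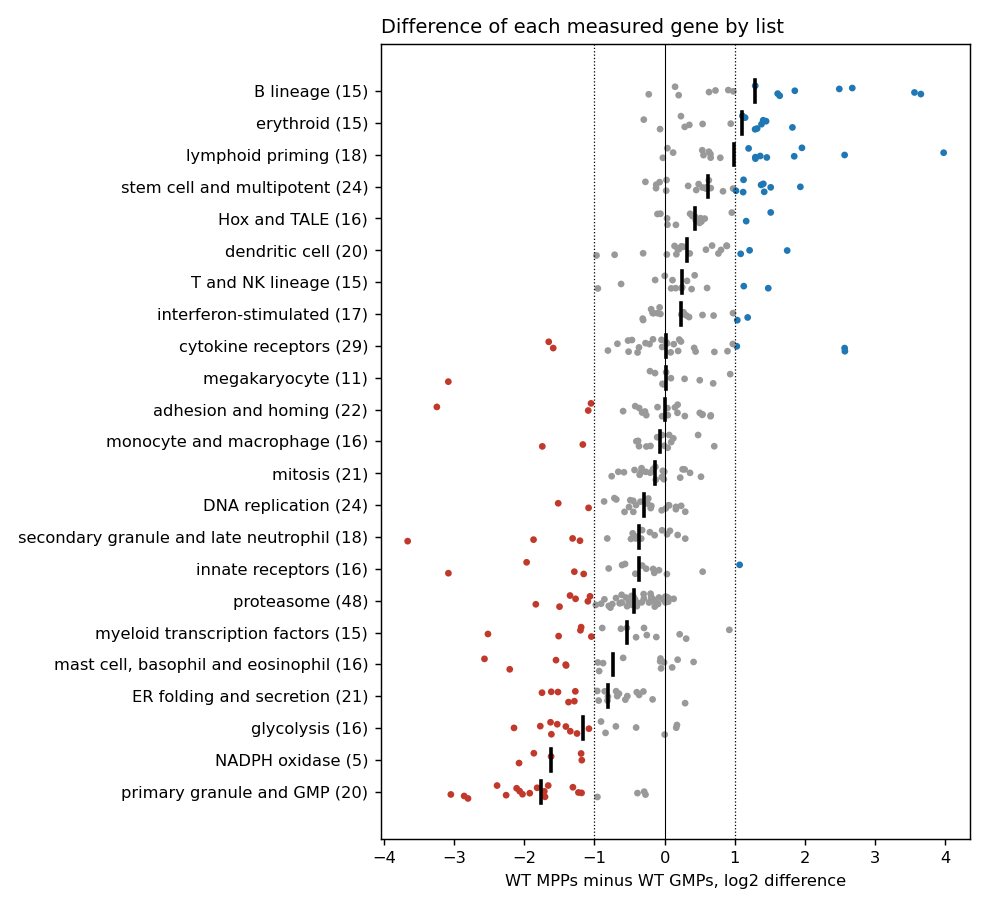
Log2 difference between WT MPPs and WT GMPs (1 array each) for every measured gene of 23 lists, ordered by the list median (black bar), with the number of genes in parentheses; blue and red points are over 2-fold higher and lower in MPPs and dotted lines mark 2-fold. The granule list has the lowest median (−1.77) and the B lineage list the highest (1.29).

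The list of secondary granule and late neutrophil genes and that of monocyte genes showed smaller or mixed differences. All 18 secondary granule and late neutrophil genes had a log2 signal above 6 in both populations. Of the 16 monocyte and macrophage genes, 5 were under 6 in both. Of the 18 secondary granule and late neutrophil genes, 4 were over 2-fold lower in MPPs and 14 were within 2-fold, with a median of −0.36. *Fcnb*, encoding ficolin B, was 9.81 and 6.15, 12.7-fold lower. *Chil3*, a chitinase-like protein gene, was 10.72 and 8.86, 3.65-fold lower. *Cd177* and *Camp*, genes of a neutrophil surface protein and of the granule peptide cathelicidin, were 2.48-fold and 2.31-fold lower. *S100a8*, encoding a calcium-binding protein of mature neutrophils, was at 13.03 in MPPs and differed by 0.04 log2 units, *Retnlg* was at 11.30 and 11.37, and *Cxcr2*, a chemokine receptor gene of neutrophils, was at 8.63 and 8.82. The whole list ran from 6.01 to 13.06 in GMPs and from 6.04 to 13.03 in MPPs. Its lowest signals lay near the medians over all genes, 5.67 in GMPs and 5.78 in MPPs. Whether RNA of mature neutrophils contributed to either pool was not tested. Among 16 monocyte and macrophage genes, *Ctsb* (cathepsin B, 9.02 and 7.27, 3.35-fold) and *F13a1* (coagulation factor XIII, 9.26 and 8.09, 2.24-fold) were lower in MPPs and 14 were within 2-fold, with a median of −0.07. *Cx3cr1*, the fractalkine receptor gene, was 1.63-fold higher in MPPs.

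Genes of eosinophils, basophils and mast cells were lower in MPPs where they differed. Of 16 measured, 5 were over 2-fold lower and 11 were within 2-fold, with a median of −0.73. *Epx*, the eosinophil peroxidase gene, was 9.21 in GMPs and 6.64 in MPPs, 5.93-fold lower. *Hdc*, encoding the enzyme that makes histamine, was 9.56 and 7.36, 4.62-fold lower. *Ms4a2*, the beta chain gene of the IgE receptor, was 2.92-fold lower, a log2 difference of −1.55 that was −1.02 once signals under 5 were set to 5. *Prss34*, a basophil protease gene, was 2.66-fold lower, and *Prg2*, the eosinophil major basic protein gene, 2.64-fold lower (11.87 and 10.47). GMP gates are known to hold precursors of these cells, and the part of such cells was not tested. Of 11 megakaryocyte genes only *Pf4*, the platelet factor 4 gene, was over 2-fold, at 7.94 in GMPs and 4.85 in MPPs, 8.47-fold lower in MPPs, and the list median was 0.02. Anew normalized, 1 further gene was over 2-fold higher.

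Metabolic and secretory genes were lower in MPPs. Of 16 glycolytic and pentose phosphate genes, 9 were over 2-fold lower, 7 lay within 2-fold and none was higher, with a median of −1.16. *Aldoa*, the gene of the glycolytic enzyme aldolase A, was 11.43 in GMPs and 9.28 in MPPs, 4.43-fold lower. *Pgd* and *Taldo1*, enzymes of the pentose phosphate pathway that supplies NADPH, were 10.12 and 10.10 in GMPs and 8.34 and 8.49 in MPPs, 3.41-fold and 3.06-fold lower. *Ldha*, lactate dehydrogenase A, was 11.11 and 9.49, 3.09-fold lower, and *Pgam1*, phosphoglycerate mutase, was 2.89-fold lower. The glucose transporter genes *Slc2a3* (0.17) and *Slc2a1* (0.00) and the hexokinase gene *Hk1* (0.18) were the 3 with no lower value. Of 21 genes for protein folding and translocation in the endoplasmic reticulum, 20 had a lower value in MPPs, 6 by more than 2-fold, and the median was −0.81. *Pdia6*, a disulfide isomerase gene, was 10.18 and 8.44, 3.36-fold lower. *Ppib*, cyclophilin B, was 3.06-fold lower, *Sdf2l1*, a chaperone complex member, 2.87-fold lower, and *Hspa5*, the gene of the chaperone BiP, was 11.58 and 10.31, 2.42-fold lower. The exception was *Ddit3*, a stress-induced factor, at 0.29. Of 8 heme synthesis genes only *Alas1* was over 2-fold. *Alas2*, the erythroid form, went the other way at 0.54, and *Urod*, *Ppox* and *Fech* were at −0.73, −0.63 and −0.39.

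Proteasome, respiratory chain and mitochondrial ribosomal genes had medians below 0 with few members over 2-fold, and cytosolic ribosomal protein genes had a median near that of all genes. Of 48 proteasome genes, 42 had a lower value and 6 were over 2-fold lower, with a median of −0.44. *Psmb7*, a catalytic subunit, was 3.57-fold lower, and the immunoproteasome subunits *Psmb9* and *Psmb10* were 2.82-fold and 2.55-fold lower. Of 82 respiratory chain and ATP synthase genes, 7 were over 2-fold lower and 1 higher, with a median of −0.32. *Ndufa9* of complex I was 2.78-fold lower, and *Cox6a2*, a cytochrome oxidase subunit gene of muscle, was 3.0-fold higher. With the arrays quantile normalized anew, or centred by signal, 3 of these genes were over 2-fold lower. Of 77 mitochondrial ribosomal protein genes, 8 were over 2-fold lower, led by *Mrpl18* (3.35-fold), with a median of −0.39 (5 genes over 2-fold anew normalized). The 58 cytosolic ribosomal protein genes had a median of −0.02, with *Rps3* alone over 2-fold (2.55-fold lower). Short genes were lower in MPPs than long genes. Across 3132 protein-coding genes with a mean log2 signal of at least 8, the genomic span from RefSeq had a Spearman correlation of 0.29 with the difference. In the 783 shortest of them (spans of 0.348 to 8.06 kb) 97 genes were over 2-fold lower and 13 higher, with a median of −0.29. In the 783 longest (43.4 to 1037 kb) 24 were lower and 14 higher, with a median of 0.07. The part of span in the difference of any list was not tested.

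Mitosis genes and genes that control entry into S phase differed little between the populations. DNA replication and clustered histone genes mostly had lower values in MPPs. None of 21 mitosis genes was over 2-fold, and their median was −0.13. *Cenpa*, a centromere histone gene, was 1.69-fold lower in MPPs and *Cenpf*, a kinetochore protein gene, 1.43-fold higher. Of 24 DNA replication genes, *Rrm2*, a subunit of ribonucleotide reductase, was 9.61 in GMPs and 8.09 in MPPs, 2.86-fold lower, and *Gins1*, of the replicative helicase complex, was 2.12-fold lower (1.97-fold anew normalized). The list median was −0.29, and 17 of the 24 had a lower value in MPPs. None of 17 genes that control entry into S phase was over 2-fold, with a median of 0.05. The 2 largest differences toward MPPs on that list were those of *Ccnd1* and *Ccnd2*, encoding cyclins D1 and D2, with signals of 8.16 and 10.44 in GMPs and 9.12 and 11.28 in MPPs, 1.95-fold and 1.79-fold higher (2.16-fold and 2.04-fold anew normalized). *Cdk4*, their kinase partner, was 1.57-fold lower. Of 22 genes for ribosome assembly, 15 had a higher value in MPPs, with a median of 0.12. *Myc*, which drives that program, was 11.81 in GMPs and 12.43 in MPPs, 1.54-fold higher, and *Nop16* was 2.79-fold lower. Of 26 clustered histone genes, *H4c3*, *H2ac4*, *H1f2* and *H4c4* were 3.62-fold, 2.24-fold, 2.06-fold and 2.01-fold lower in MPPs, and the last 2 were within 2-fold anew normalized, when 1 other histone gene was over 2-fold higher. The histone median was −0.52, and 19 of the 26 had a lower value in MPPs.

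Receptors and adhesion molecules differed gene by gene. Of 29 cytokine receptor genes, 3 were over 2-fold higher in MPPs, 2 were lower and 24 were within 2-fold, with a median of 0.02. *Il7r* and *Flt3*, the receptors of the lymphoid cytokines IL-7 and Flt3 ligand, led, and *Il10ra* was 5.67 and 6.70, 2.04-fold higher (1.99-fold anew normalized). *Ifngr1*, a chain of the interferon gamma receptor, was 9.74 in GMPs and 8.09 in MPPs, 3.14-fold lower. *Csf2ra*, the ligand-binding chain of the GM-CSF receptor, was 9.69 and 8.11, a difference of −1.59, and its shared partner *Csf2rb* was at −0.52. *Il6st*, the gp130 chain used by IL-6 family cytokines, was 1.86-fold higher in MPPs and *Il17ra*, the IL-17 receptor gene, 1.96-fold higher, and both passed 2-fold anew normalized, at differences of 1.04 and 1.13. Of 22 adhesion and homing genes, *Vcam1* (8.49 and 5.25, 9.48-fold), *Cd9* (2.13-fold) and *Ccr1* (2.07-fold) were lower in MPPs and 19 were within 2-fold, with a median of 0.00. *Vcam1* encodes a ligand of integrins on leukocytes, *Cd9* a tetraspanin, and *Ccr1* a chemokine receptor of myeloid cells, which was within 2-fold anew normalized.

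Of the dendritic cell list, *H2-Ab1*, *Cd74* and *Ccr7* were over 2-fold higher in MPPs. Of 20 measured, 3 were over 2-fold higher, none was lower and 17 were within 2-fold, with a median of 0.31. Only 11 of the 20 reached log2 6 on either array, and *Siglech*, *Itgax*, *Xcr1* and *Clec9a* did not. The other MHC class II genes lay between 0.17 (*H2-DMa*) and 0.80 (*H2-Aa*). *H2-Ab1*, a chain of the class II molecule, was 7.96 in GMPs and 9.71 in MPPs, 3.36-fold higher, and *Cd74*, the invariant chain, was 8.22 and 9.44, 2.32-fold higher. *Ccr7*, the receptor that leads cells to lymph nodes, was 5.29 and 6.38, 2.12-fold higher (a difference of 0.98, within 2-fold, with lowess centring). *Id2*, an inhibitor of E proteins, was 7.15 and 6.18, 1.96-fold lower (past 2-fold with median centring). Of 15 T and NK cell genes, *Gata3* (5.12 and 6.60, 2.78-fold) and *Thy1* (7.07 and 8.20, 2.19-fold) were higher in MPPs, and 12 had a signal under 6 on both arrays. Anew normalized, 1 gene of the list was over 2-fold lower. *Cd3g*, a defining chain of the T cell receptor complex, was at 2.89 and 3.21.

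Among the largest differences outside these lists, genes of varied function appeared on both sides. *B4galt6*, encoding a galactosyltransferase that makes lactosylceramide, was 8.92 in GMPs and 4.97 in MPPs, 15.4-fold lower and the largest difference toward GMPs. *Olr1*, a lectin-like receptor for oxidized LDL, was 8.44 and 4.92, 11.5-fold lower. *Prss57*, a serine protease of neutrophil granules that was not on the granule list, was 10.21 and 6.87, 10.2-fold lower. *Mgl2*, a galactose-binding lectin gene, was 6.51 and 3.34, a difference of −3.16 that was −1.51 once signals under 5 were set to 5. *Sgms2*, a sphingomyelin synthase gene, was 7.58-fold lower, and *Far2*, a fatty acyl-CoA reductase gene, 7.21-fold lower. *Tshr*, the thyrotropin receptor gene, was 7.38 and 4.55, 7.08-fold lower, and *Mgam*, the maltase-glucoamylase gene, was 9.06 and 6.25, a difference of −2.81. On the MPP side *Emp1*, a membrane protein gene, was 5.37 and 7.71, 5.07-fold higher. *Gimap4* and *Gimap6*, GTPase genes of lymphocytes, were 4.93 and 6.38 in GMPs and 7.18 and 8.59 in MPPs, 4.76-fold and 4.64-fold higher. *Phxr4* was 3.99 and 6.25, a difference of 2.26 that was 1.25 once signals under 5 were set to 5. *Rgl1*, an exchange factor for Ral, was 4.53-fold higher, *Atp1b2*, a sodium pump subunit, 4.51-fold, *Rbpms*, an RNA-binding protein gene, 4.49-fold, and *Cmah*, an enzyme of sialic acid synthesis, 4.38-fold higher.

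The same populations of *Bcl11a*-/- donors gave a second difference that shares no array with the WT one, although both populations of a genotype came from the same BM. Of the 559 genes over 2-fold lower in WT MPPs, 397 (71.0%) were also over 2-fold lower in *Bcl11a*-/- MPPs, which is 34.2% of the 1160 genes lower there. Of the 266 genes higher in WT MPPs, 106 (39.8%) were also higher in *Bcl11a*-/- MPPs, 22.6% of the 470 there. In that genotype 8.18% of all genes were over 2-fold, 2.36% higher and 5.82% lower. Counting the sign alone, 98.0% of the genes lower in WT MPPs and 89.5% of those higher had the same sign in *Bcl11a*-/- cells, where 40.4% of all genes had a lower and 59.4% a higher value in MPPs. Across 19938 genes the 2 differences had a Pearson correlation of 0.65 and a Spearman correlation of 0.54, as a description over genes, which are not independent replicates. Both differences rose with genomic span, with Spearman correlations of 0.29 in WT and 0.36 in *Bcl11a*-/- cells over the same 3132 genes. Proteasome genes over 2-fold lower in MPPs were 6 of 48 in WT and 30 of 48 in *Bcl11a*-/- cells. For respiratory chain and ATP synthase genes the counts were 7 and 31 of 82. The part of span in the overlap was not tested. With 1 array each, no test of the difference between genotypes was possible.

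Primary granule and GMP genes were lower in MPPs of both genotypes, with medians of −1.77 in WT and −2.17 in *Bcl11a*-/- cells. In each, 16 of 20 were over 2-fold lower, against 2.8% of all genes in WT and 5.82% in *Bcl11a*-/- cells. The 16 were not all the same genes. *Ctsc* was over 2-fold lower in WT alone (−1.18 and −0.06), and *Ly86* in *Bcl11a*-/- cells alone (−0.96 and −1.88). *Ms4a3* was 8.26-fold lower in WT and 48.9-fold lower in *Bcl11a*-/- MPPs than in the GMPs of the same genotype. The stem cell and multipotent list had medians above 0 in both, 0.61 and 0.84, with 8 and 9 genes over 2-fold higher in MPPs. The B lineage and erythroid lists had fewer genes over 2-fold in *Bcl11a*-/- cells. Of 15 B lineage genes, 8 were over 2-fold higher in WT MPPs and 1 in *Bcl11a*-/- MPPs, with medians of 1.29 and 0.31, and *Ebf1* differed by 2.67 in WT and 0.00 in *Bcl11a*-/- cells. Of 15 erythroid genes the counts were 8 and 1 and the medians 1.11 and −0.16. *Car1* was 12.46 in *Bcl11a*-/- GMPs and 12.54 in *Bcl11a*-/- MPPs. The 2 lists differed in the direction of the change between genotypes. Every B lineage gene was lower in *Bcl11a*-/- than in WT MPPs, with *Ebf1* at 3.89 and 7.72. Most B lineage genes were also lower in *Bcl11a*-/- than in WT GMPs, with *Cd79a* at 3.39 and 5.59. *Foxo1* was not, at 5.99 and 5.90. Every erythroid gene was higher in *Bcl11a*-/- than in WT GMPs, with *Klf1* at 8.13 and 6.44. Most erythroid genes were also higher in *Bcl11a*-/- than in WT MPPs, with *Klf1* at 8.12 and 7.82. Among the 15 genes with the largest difference toward WT MPPs, *Rbpms* was the one with a larger difference in *Bcl11a*-/- cells, 3.03 against 2.17 log2 units.

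**Figure D3:**
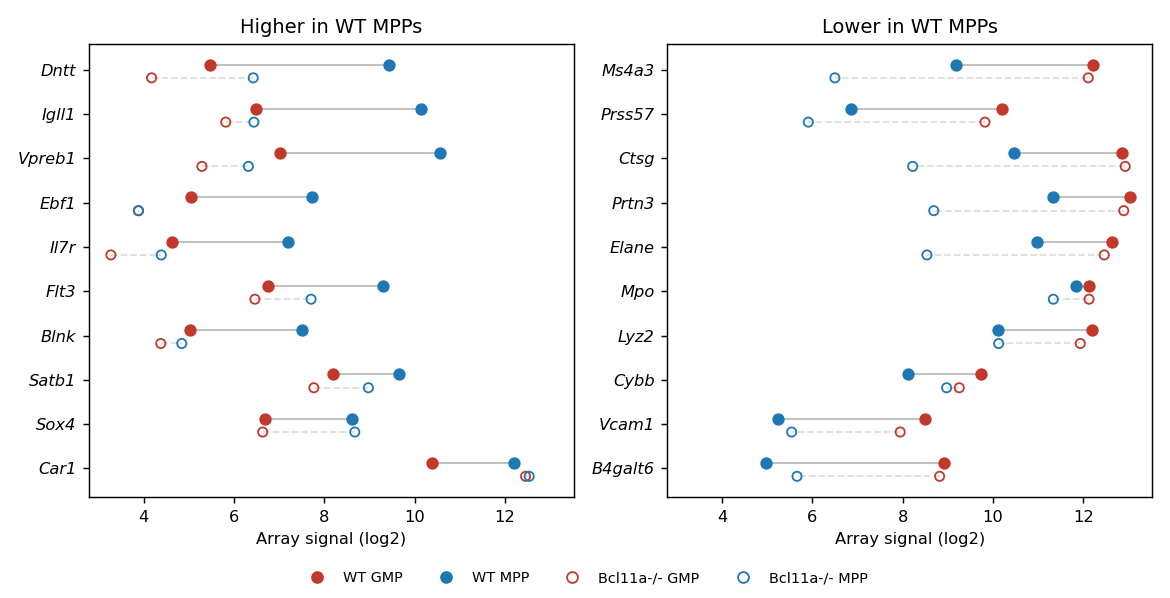
Array signal (log2) of 10 genes higher (left) and 10 lower (right) in WT MPPs, with GMPs in red and MPPs in blue, WT as filled and *Bcl11a*-/- as open circles, 1 array per point, lines joining the populations of a genotype. *Mpo* lies at 12.13 and 11.84 in WT cells while *Ms4a3* lies at 12.22 and 9.18, and the *Bcl11a*-/- circles of *Ebf1* and *Car1* nearly coincide.

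**Figure D4:**
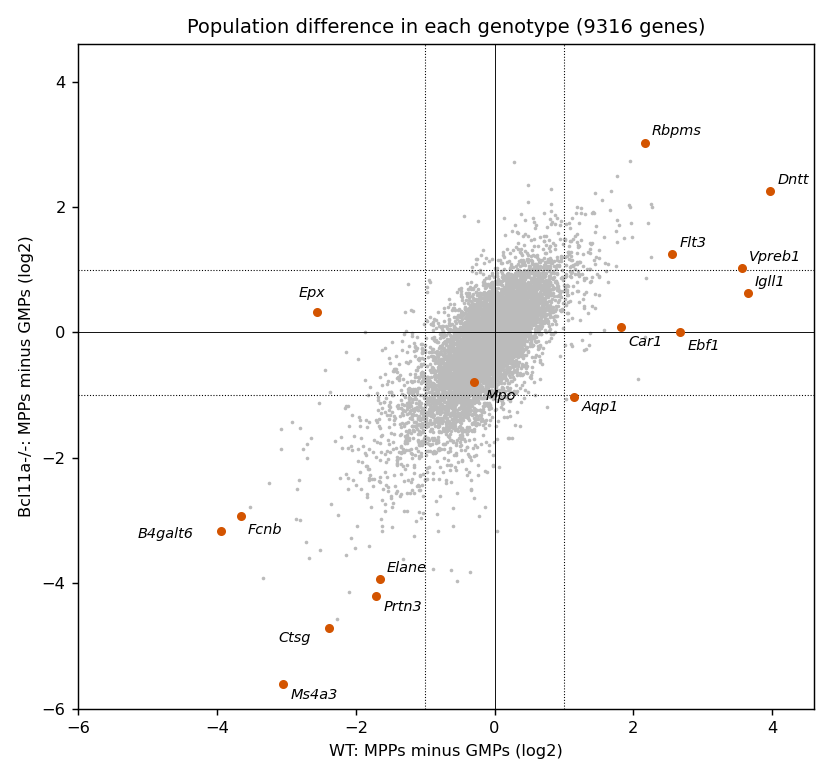
Log2 difference between MPPs and GMPs in WT (horizontal) and *Bcl11a*-/- cells (vertical) for 9316 genes with log2 of at least 6 on an array of each genotype (gray), 1 array per population and genotype, with named genes in orange whatever their signal; dotted lines mark 2-fold. Granule genes lie lower in both, while *Igll1* and *Ebf1* lie far right with *Bcl11a*-/- differences of 0.62 and 0.00.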

How the data were processed

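MPPs and GMPs of WT and *Bcl11a*-/- donors were each measured on 1 one-color oligonucleotide array. Biotinylated cRNA was made with an Ovation PicoSL kit, and the authors deposited log2 values made by RMA, quantile normalized in ArrayStar, with 1 value for each probe set (RMA per the labels; versions are not given in the sources used here). Scanner files and scan batches were not used here. Quantile normalization can hide a change in total mRNA per cell. Each of the 4 value columns was mapped to its sample by name.

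The table holds 30177 rows, of which 21789 carry 1 gene symbol, 1621 several and 6767 none here; the last 2 kinds gave no gene value. Platform annotation supplied symbols, checked through Entrez identifiers against RefSeq GRCm38.p6, and 0 changed. The 21789 probe sets gave 19938 genes. Computation used Python 3.11.15, pandas 2.3.3 and statsmodels 0.14.6. With 1 array per population no p-value, replicate SD or interval could be computed; the SDs given are over genes. Counting past 2-fold, lowess centring and quantile normalization were tested on simulated data.

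Genes were counted past 2-fold and described in 30 lists and 5 families set by symbol. The members, lists and the 2-fold rule were chosen with earlier results of these data known, and the symbol patterns of the families were set after the annotation was read. Named genes are the 4 markers, *Bcl11a*, sort genes, the 15 largest differences in each direction among genes with log2 of at least 6 on either WT array (without small RNAs, antigen receptor segments, predicted genes, Riken clones, or vomeronasal and olfactory receptors), up to 6 per direction from each list (all, where a list has under 10 measured genes), genes over 2-fold in opposite directions in the 2 genotypes, and genes whose promoters are printed. Alternatives were quantile normalization anew, median centring, lowess centring (span 0.3), a filter at log2 6, a floor at 5, the brightest probe set, thresholds of 1.5-fold and 3-fold, and counts per probe set or over all rows.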

Additional observations from a re-analysis of the deposited data

Results flagged for a closer look

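In 3 genes with a log2 signal of at least 6 on an array of each genotype, the MPP minus GMP difference was over 2-fold in opposite directions in WT and *Bcl11a*-/- cells; the difference between genotypes was not tested, since each value rests on 1 array per population. *Aqp1*, a water channel gene of red cells, differed by 1.15 in WT cells (6.60 in GMPs and 7.75 in MPPs) and by −1.02 in *Bcl11a*-/- cells (8.52 and 7.50). *Crip1*, a LIM domain protein gene, differed by 1.02 in WT cells (10.71 and 11.74) and by −1.06 in *Bcl11a*-/- cells (10.71 and 9.65), and centring on the median put its WT difference within 2-fold, at 0.97. *Inka1* differed by 1.16 in WT cells (7.37 and 8.53) and by −1.03 in *Bcl11a*-/- cells (7.74 and 6.72).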

How the results depend on the processing

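The count of genes over 2-fold depended on the threshold and on the rows counted. At 1.5-fold it was 2920 in either direction, 1330 higher and 1590 lower in MPPs; at 3-fold it was 180, 50 and 130; over all rows of the table at 2-fold it was 1517, 510 and 1007. Under the other alternatives (quantile normalization anew, median or lowess centring, the filter at log2 6, the floor at 5, the brightest probe set, counting per annotated probe set) each count stayed within 1.5 times. At 2-fold, the share of calls that were higher in MPPs was 32.2% as deposited and between 26.6% and 37.7% under the alternatives per gene. The share was larger at 1.5-fold, with 1330 of 2920 calls higher. Of 35 list and family medians, 1 moved by more than 1.5-fold: that of T and NK genes, 0.24 as deposited, was 1.13 over the 3 genes with log2 of at least 6, a smaller set by construction. Of 135 named genes over 2-fold, 114 stayed so under every one of 6 alternatives that held them, 21 fell under 2-fold in at least 1, and 0 changed sign; 13 named genes within 2-fold passed it in at least 1. No paired analysis was possible because each population and genotype has 1 array and the labels give no replicate numbers. Scanner backgrounds were not used, so how far a dim signal lies above background is not known; setting signals under 5 to 5 left 209 genes over 2-fold higher and 537 lower.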

Other observations

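Lists that mark cell handling, survival and other cells differed little between WT MPPs and WT GMPs. Of 17 immediate early genes, which handling can induce, none was over 2-fold, with a median of −0.12; the phosphatase gene *Dusp1* was 11.74 in GMPs and 10.83 in MPPs, 1.89-fold lower in MPPs, and *Nr4a1*, a nuclear receptor gene, was 1.78-fold higher. Of 13 BCL2 family genes, *Bak1*, which promotes cell death, was 10.91 and 9.72, 2.29-fold lower in MPPs (1.97-fold with the arrays quantile normalized anew), and *Bcl2*, which opposes it, was 8.07 and 8.97, 1.86-fold higher (2.07-fold anew). The family median was −0.10.

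Of 17 interferon-stimulated genes, *Ifi203*, of the Ifi200 family, was 8.61 in GMPs and 9.80 in MPPs, 2.27-fold higher, and *Ifi27l2a* was 9.52 and 10.56, 2.05-fold higher (a difference of 0.98, within 2-fold, with median centring), with a list median of 0.24. None of 14 stromal and endothelial genes was over 2-fold as deposited, with a median of 0.15. *Pdgfrb*, a receptor gene of perivascular cells, was 6.36 and 7.36, a difference of 0.998 that was 1.05 anew normalized, and *Lum*, a matrix protein gene, was at 3.03 and 3.67.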
